A study of Homo sapiens with 33 samples.

Results

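The proteasome genes were followed during treatment with EED226 in Karpas422, a cell line from human diffuse large B cell lymphoma. They were taken as every gene whose symbol in the platform annotation is PSMA, PSMB, PSMC, PSMD, PSME, PSMF or PSMG followed by digits and which has a probe set carrying that symbol alone, and each was measured by its brightest probe set. The rule gave 42 genes of the 19775 measured. PSMB8, PSMB9, PSMB10 and PSME1 form the inducible, or immunoproteasome, group of 4, and the other 38 are called constitutive here. PSME2, PSMA6, PSMB11, PSMC5, PSMD7 and PSMD13 are not analysed here, PSME2 and PSMA6 because their probe sets carry a second symbol.

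The study comprised 33 arrays in 11 groups of 3. EED226, an allosteric inhibitor that binds the EED subunit of the Polycomb repressive complex PRC2, was, by the sample titles, given for 8 h or for 1, 2, 3 or 6 days. The EED226 dose was 5 µM, which the titles do not state. The solvent DMSO was given for the same times, and there were arrays at 0 h whose treatment the labels do not state. All groups are the same single line, which the series title describes as EZH2 mutant, EZH2 being the methyltransferase of PRC2, so no group is wild type. The design text speaks of biological triplicates and of an EZH2 inhibitor, and the treatment protocol, the same for all arrays, names EI1 beside EED226 and DMSO. The groups follow the sample titles, which name EED226 for every treated sample. Nothing says that replicates came from separate cultures, so p-values measure the spread between these samples, which may be technical.

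The 20S proteasome is a barrel of stacked rings of alpha and beta subunits whose cutting sites lie inside, and the 19S regulatory particle caps it, recognises ubiquitin-tagged proteins, unfolds them with a ring of ATPases and feeds them in. The beta subunits PSMB5, PSMB6 and PSMB7 carry the active sites of the constitutive form. In lymphoid cells, and in other cells exposed to interferon gamma, PSMB8, PSMB9 and PSMB10 are built in instead of PSMB5, PSMB6 and PSMB7, and PSME1 with PSME2 forms an alternative cap. The resulting particle is known for making peptides that suit presentation on MHC class I. PSMB8 and PSMB9 lie in the MHC region beside TAP1 and TAP2, the subunits of the transporter that moves those peptides into the endoplasmic reticulum.

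In RefSeq's promoter windows (GRCh38.p14), which run from 250 bases before to 50 bases after each start, 36 of the 42 genes were found. The interferon gamma activated site (GAS), searched as TTCNNNGAA, which reads the same on both strands, was found for 1 of 4 inducible genes (PSMB8) and 7 of the 32 constitutive genes with a window, among them PSMB5 and PSMC4. Of the 27305 genes with a window 9.38% held it, as did 7.66% of all 35116 windows. CCAAT, the site of NF-Y, was searched on both strands and found for 1 of 4 inducible genes (PSMB9) and 16 of 32 constitutive genes, against 39.7% of all genes. The stretches below run from 100 bases before to 30 bases after the start of the 4 inducible genes, for PSMB8 at the start whose window holds the GAS letters, so that the promoters of the genes that rose can be set side by side. PSMB5, the subunit that PSMB8 replaces, and PSMC4, an ATPase of the 19S particle, follow as constitutive genes with the GAS letters. PSMB5 too is shown at the start whose window holds these letters, and its other start is not shown. All are 5′ to 3′ on the gene's strand, and capitals mark the GAS letters.
PSMB8, chr6:32844018-32844147, minus strand: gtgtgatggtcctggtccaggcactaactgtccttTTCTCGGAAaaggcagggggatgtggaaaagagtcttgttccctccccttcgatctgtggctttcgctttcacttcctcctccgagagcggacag
PSMB9, chr6:32854092-32854221, plus strand: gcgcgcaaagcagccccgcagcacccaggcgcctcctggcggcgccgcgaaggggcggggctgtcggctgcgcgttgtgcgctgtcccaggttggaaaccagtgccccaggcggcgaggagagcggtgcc
PSMB10, chr16:67936821-67936950, minus strand: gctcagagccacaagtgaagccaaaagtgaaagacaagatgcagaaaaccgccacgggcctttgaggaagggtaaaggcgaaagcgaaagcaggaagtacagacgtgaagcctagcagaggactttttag
PSME1, chr14:24136094-24136223, plus strand: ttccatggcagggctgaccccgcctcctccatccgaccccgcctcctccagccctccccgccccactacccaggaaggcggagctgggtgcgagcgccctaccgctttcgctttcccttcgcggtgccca
PSMB5, chr14:23034871-23035000, minus strand: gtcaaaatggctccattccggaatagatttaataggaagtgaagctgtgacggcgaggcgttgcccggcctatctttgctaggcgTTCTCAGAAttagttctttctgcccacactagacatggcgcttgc
PSMC4, chr19:39971065-39971194, plus strand: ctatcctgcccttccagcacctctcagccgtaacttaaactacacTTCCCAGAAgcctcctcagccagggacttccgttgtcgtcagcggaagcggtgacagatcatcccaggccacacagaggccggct

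A match describes these letters in these windows and does not show a bound site. The interferon-stimulated response element, another site, was not searched, so these counts do not cover all interferon sites. The starts of PSMB9 and TAP1 face away from each other with 487 bases between them.

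The median log2 value of an array ranged from 4.061 to 4.176. Replicate 3 of DMSO on day 6 stood apart, with a 75th percentile of 6.1 against 6.474 to 6.737 on the other arrays. Without it no member's difference on day 6 moved by more than 0.10, the move of PSMC3, and 3 calls changed, those of PSMA8 and PSMD9 lost and that of PSMA4 gained. The EED226 arrays on day 6 had the highest 75th percentiles, 6.679 to 6.737, where all other arrays reached at most 6.618. A measure of RNA integrity moved with treatment: the GAPDH 3′ probe set exceeded the 5′ probe set by 0.524 to 0.737 on the EED226 arrays and by 0.235 to 0.285 on the DMSO arrays on day 6, and by 0.303 to 0.435 on the EED226 arrays and 0.231 to 0.245 on the DMSO arrays on day 3. For ACTB that excess was 3.504 to 4.141 on the EED226 arrays and 2.866 to 3.286 on the DMSO arrays on day 6. All 5 measured B cell markers (MS4A1, CD79A, CD79B, PAX5 and CD22) lay above the highest array median, as did 4 of 6 T and NK cell markers, with CD3D, CD3G and CD247 high and CD2 and NKG7 below it, and 0 of 4 myeloid markers. Averaged over its markers, the B cell list lay at 10.6 to 10.8 on the EED226 arrays and 9.92 to 10.3 on the DMSO arrays on day 6. The T and NK cell list lay at 6.02 to 6.23 on the EED226 arrays and 6.5 to 6.56 on the DMSO arrays, and the myeloid list at 3.86 to 4.09 on the EED226 arrays and 3.55 to 3.67 on the DMSO arrays. Of the stromal and endothelial markers 3 of 5 lay above the highest array median, and that list lay at 5.22 to 5.32 on the EED226 arrays and 4.47 to 5.03 on the DMSO arrays. The 1 measured erythroid marker, HBB, lay above it too, at 4.6 to 4.83 on the EED226 arrays and 4.83 to 5.02 on the DMSO arrays. The part of these marker shifts in the results was not tested. All arrays are of the single line Karpas422, and these lists do not show that cells of other types were present. In bulk RNA fewer cells with a transcript and less RNA per cell cannot be told apart.

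The comparison of EED226 with DMSO at each time asks what PRC2 inhibition changed and when. By day 6 RNA of the inducible genes and of most genes called constitutive here had moved in opposite directions. Of the constitutive genes only PSMB5, PSMB6 and PSMB7 are replaced by inducible subunits. All 4 inducible genes were higher with EED226, by 1.23 to 1.81-fold, and 30 of the 38 constitutive genes were lower, among them every one of the 3 constitutive catalytic subunits and all 4 chaperones of 20S assembly. The other direction held 3 constitutive genes.

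**Figure D1:**
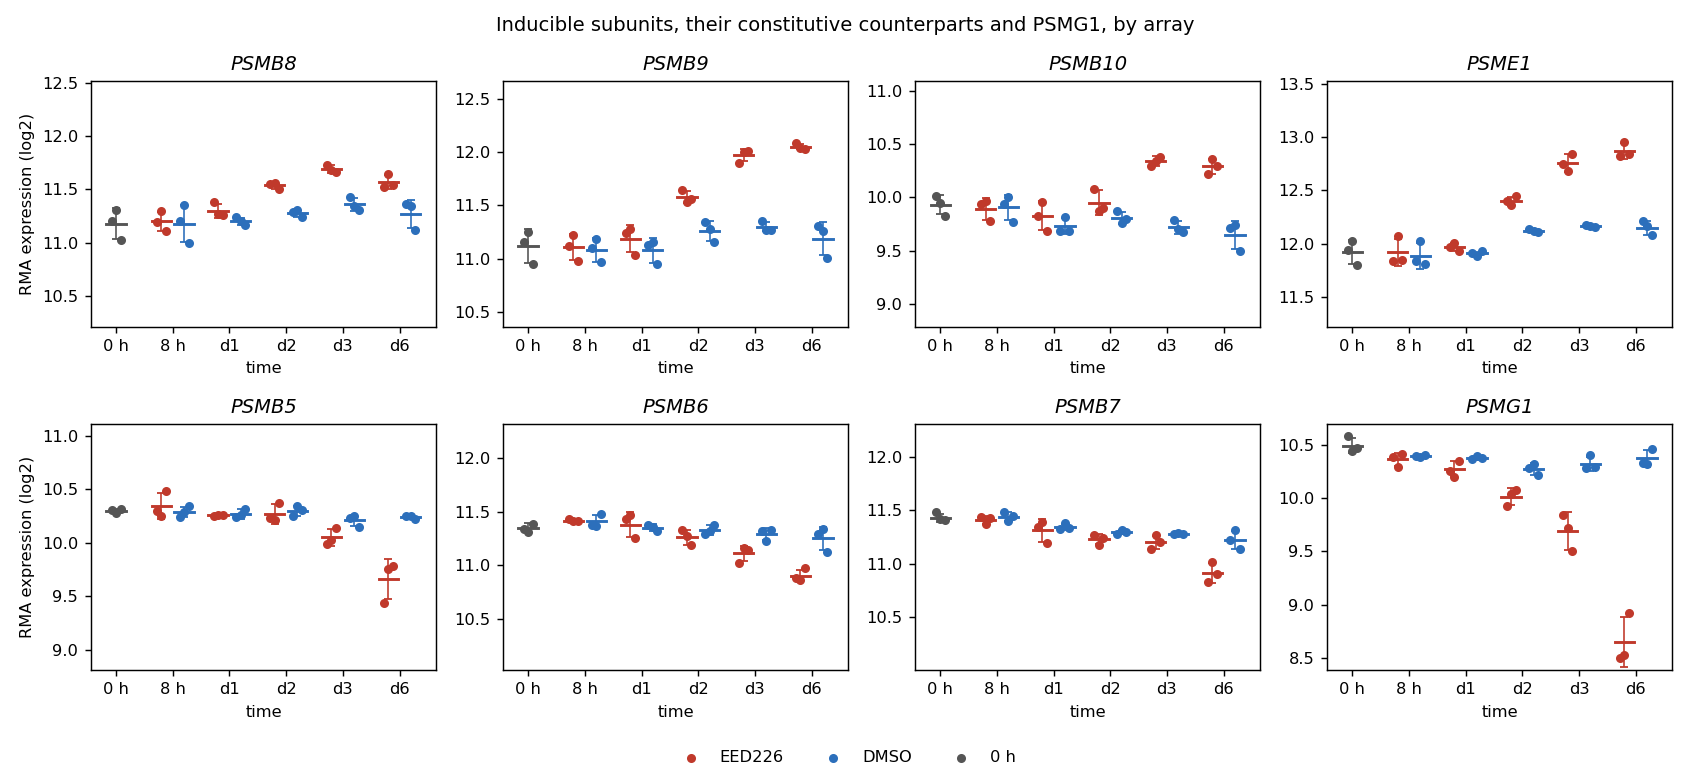
RMA expression (log2) of 8 genes against time, 1 point per array, with EED226 in red to the left of DMSO in blue and the 0 h arrays in grey; bars show the mean and whiskers 1 SD (n = 3), and each panel spans the same log2 range at its own level. The EED226 points of PSMB9 and PSME1 lie above the DMSO points from day 2 on, and those of PSMG1 end between 8.50 and 8.92 on day 6, below all DMSO points.

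These counts used limma over all 19775 genes with Benjamini-Hochberg adjustment and an adjusted p under 0.05, two-sided. On day 6 the test called 23.7% of all genes higher and 27.3% lower, 51.0% in all, and the members are read against those shares. The 4 of 4 inducible genes and the 30 of 38 constitutive genes stand beside them. How many genes were called depended on the fit, with 3718 higher and 3304 lower when only the EED226 and DMSO arrays of day 6 were fitted. The median difference was 0.68 for the inducible genes and -0.35 for the constitutive genes on the log2 scale, against -0.11 for all genes. The groups of arrays did not overlap for 4 inducible genes, higher, and for 3 constitutive genes, higher, and 30, lower, where 23.7% of all genes were higher and 28.0% lower without overlap.

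PSMB9, the inducible partner of PSMB6, had log2 values of 12.08, 12.04 and 12.03 with EED226 and 11.31, 11.26 and 11.01 with DMSO on day 6. Every EED226 array lay above every DMSO array, and the difference was 0.86 ± 0.09 (SE, n = 3 each), a 1.81-fold rise (limma adjusted p = 4e-09), and 0.77 without replicate 3 of DMSO. PSME1, a subunit of the alternative cap, had 12.82, 12.95 and 12.84 with EED226 and 12.21, 12.17 and 12.08 with DMSO. Its groups were again apart, with a rise of 0.72 ± 0.07 or 1.65-fold (limma adjusted p = 1.08e-09). PSMB10, the inducible partner of PSMB7, had 10.22, 10.36 and 10.29 with EED226 and 9.71, 9.74 and 9.50 with DMSO. The DMSO array that stands apart was its lowest, and the rise was 0.64 ± 0.08 or 1.55-fold (limma adjusted p = 1.96e-07), and 0.56 without that array. PSMB8, the inducible partner of PSMB5, had 11.52, 11.64 and 11.54 with EED226 and 11.36, 11.34 and 11.12 with DMSO. Its groups were apart by the least of the 4 genes, with a rise of 0.30 ± 0.08 or 1.23-fold (limma adjusted p = 0.00308). Without replicate 3 of DMSO the PSMB8 difference was 0.22 (limma adjusted p = 0.0334), and with the 6 arrays fitted alone it was 0.30 (limma adjusted p = 0.0629).

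The 3 constitutive catalytic subunits, which these inducible subunits replace, all fell. PSMB5, the chymotrypsin-like site, had 9.44, 9.75 and 9.78 with EED226 and 10.25, 10.25 and 10.22 with DMSO on day 6. The EED226 arrays all lay below the DMSO arrays and spread more widely, and the difference was -0.58 ± 0.07 (SE, n = 3 each, limma adjusted p = 1.43e-07). PSMB6, the caspase-like site, had 10.88, 10.86 and 10.97 with EED226 and 11.29, 11.34 and 11.12 with DMSO. It fell without overlap, by 0.35 ± 0.07 (limma adjusted p = 5.98e-05). PSMB7, the trypsin-like site, had 10.83, 11.01 and 10.90 with EED226 and 11.22, 11.31 and 11.14 with DMSO. Its difference of -0.31 ± 0.06 was the smallest of the 3 (limma adjusted p = 0.000105), and the mean of its probe sets gave -0.29 (limma adjusted p = 0.0586).

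Within each array the log2 value of an inducible subunit minus that of its partner removes what the pair shares. On day 6 that difference was higher with EED226 than with DMSO by 0.88 for PSMB8 and PSMB5, or 1.84-fold. It was higher by 1.21 for PSMB9 and PSMB6, or 2.31-fold, and by 0.94 for PSMB10 and PSMB7, or 1.92-fold. Without replicate 3 of DMSO the 3 differences were 0.82, 1.18 and 0.91 in the same order. The EED226 and DMSO arrays were fully separated for all 3 pairs. The exact two-sided permutation p was 0.1 for each pair (0.1 after adjustment over the 3 pairs), the smallest that 20 permutations of 3 against 3 allow, so this test cannot pass its threshold. On day 3 the same differences were 0.48, 0.86 and 0.70, and on day 2 0.29, 0.39 and 0.21, in the order of the pairs above. They compare changes only, since the levels of different probe sets have no common scale.

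Of the other 20S subunits, which build the rings, 8 of 10 fell on day 6, with a median difference of -0.32 and a range of -0.57 to -0.10. PSMB2, a beta subunit with no active site, had the largest fall of this group, with 11.20, 11.21 and 11.40 with EED226 and 11.86, 11.88 and 11.78 with DMSO. The groups did not overlap, with a difference of -0.57 ± 0.05 (SE, n = 3 each, limma adjusted p = 8.45e-10). This call depends on the probe set. Another, dimmer PSMB2 probe set, singled out after its values were seen, averaged 6.81 with EED226 and 3.54 with DMSO, a rise of 3.27, and 2 more fell by 0.68 and 0.71. The mean of the gene's probe sets rose by 0.33 (limma adjusted p = 0.00084). PSMA5 had the same kind of disagreement, with -0.43 in its brightest probe set and 0.25 in the mean of its probe sets (limma adjusted p = 0.0648). The 2 members of the group that did not pass were PSMA4 at -0.11 (limma adjusted p = 0.095; -0.15 and 0.0361 without replicate 3 of DMSO) and PSMB4 at -0.10 (limma adjusted p = 0.167). PSMA8, the testis form of an alpha subunit, was the one member whose mean over all arrays lay under the lowest array median. It had 3.15, 3.08 and 3.34 with EED226 and 2.86, 2.86 and 2.80 with DMSO. The groups were apart by 0.35 ± 0.13 at this low level (limma adjusted p = 0.031), and the call was lost on leaving out any 1 of the 3 DMSO arrays or EED226 replicate 3 (differences of 0.28 to 0.36, limma adjusted p from 0.0502 to 0.131).

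Most genes of the 19S particle fell too. Of its ATPases, which unfold the substrate, 4 of 5 fell, with a median of -0.45. PSMC3 fell most, with 8.21, 8.17 and 8.25 with EED226 and 9.26, 9.11 and 8.89 with DMSO. The EED226 arrays lay close together below all DMSO arrays, at -0.88 ± 0.09 (SE, n = 3 each, limma adjusted p = 6.11e-09), and at -0.98 without replicate 3 of DMSO. PSMC6 did not pass, at -0.07 (limma adjusted p = 0.361). Of the non-ATPase subunits, 8 of 9 fell, with a median of -0.65. PSMD12, a scaffold subunit of the lid, fell most, with 9.96, 9.96 and 9.99 with EED226 and 10.88, 10.89 and 10.75 with DMSO. Its EED226 arrays were almost equal and far below the DMSO arrays, at -0.87 ± 0.06 or 1.83-fold lower (limma adjusted p = 1.28e-12). The other, dimmer PSMD12 probe set did not fall, with a difference of 0.07. PSMD14, which cuts ubiquitin chains off the substrate, fell by 0.66 ± 0.05 (limma adjusted p = 4.3e-11). PSMD4, a ubiquitin receptor, did not pass, at -0.03 with a 95% interval from -0.14 to 0.09.

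The assembly factors split. All 4 chaperones that help build the 20S ring fell, with a median of -0.62. PSMG1, which pairs with PSMG2 to assemble the alpha ring, had the largest change of any member, with 8.50, 8.53 and 8.92 with EED226 and 10.33, 10.32 and 10.46 with DMSO. The groups were more than a full log2 unit apart, with a difference of -1.72 ± 0.09 or 3.29-fold lower (SE, n = 3 each, limma adjusted p = 3.4e-15). It was the one member of 42 with a fall of at least 2-fold, which 586 of all 19775 genes showed. Its partner PSMG2 fell by 0.21 (limma adjusted p = 0.00229). PSMG4, which pairs with PSMG3, fell by 0.84 (limma adjusted p = 1.76e-11), but the mean of its 5 probe sets gave -0.10 (limma adjusted p = 0.126). Of the 3 chaperones of 19S assembly, 2 were higher and 1 was lower. PSMD10, also known as gankyrin, had 10.50, 10.62 and 10.59 with EED226 and 10.35, 10.37 and 10.42 with DMSO. The groups were narrowly apart, at 0.19 ± 0.06 (limma adjusted p = 0.00545), and the difference was 0.08 with ACTB integrity as a covariate (limma adjusted p = 0.367) and -0.03 with that of GAPDH (limma adjusted p = 0.884). PSMD9 rose by 0.17 (limma adjusted p = 0.0362), and by 0.08 without replicate 3 of DMSO (limma adjusted p = 0.321). Its call was also lost without any 1 of the 3 EED226 arrays (differences of 0.16 to 0.17, limma adjusted p from 0.0589 to 0.0756). PSMD5 had 8.82, 9.10 and 9.12 with EED226 and 9.28, 9.33 and 9.15 with DMSO. It was lower by a narrow gap, at -0.24 ± 0.07 (limma adjusted p = 0.00622), and at -0.15 without replicate 1 of EED226 (limma adjusted p = 0.0858).

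Among the other caps and the inhibitor, PSME3, the nuclear relative of PSME1, moved against it. It had 8.57, 8.74 and 8.80 with EED226 and 9.46, 9.48 and 9.38 with DMSO on day 6. Every EED226 array was lower, with a difference of -0.74 ± 0.07 (SE, n = 3 each, limma adjusted p = 1.6e-09), where PSME1 gave 0.72. PSME4, a single-chain cap, fell by 0.22 (limma adjusted p = 0.0206), although its groups overlapped and the mean of its probe sets gave 0.01. The call was lost without DMSO replicate 1 or 2 or without EED226 replicate 1 or 3 (differences of -0.20 to -0.15, limma adjusted p from 0.0637 to 0.138). PSMF1, a proteasome inhibitor, did not pass, at 0.01 with a 95% interval from -0.15 to 0.18.

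**Figure D2:**
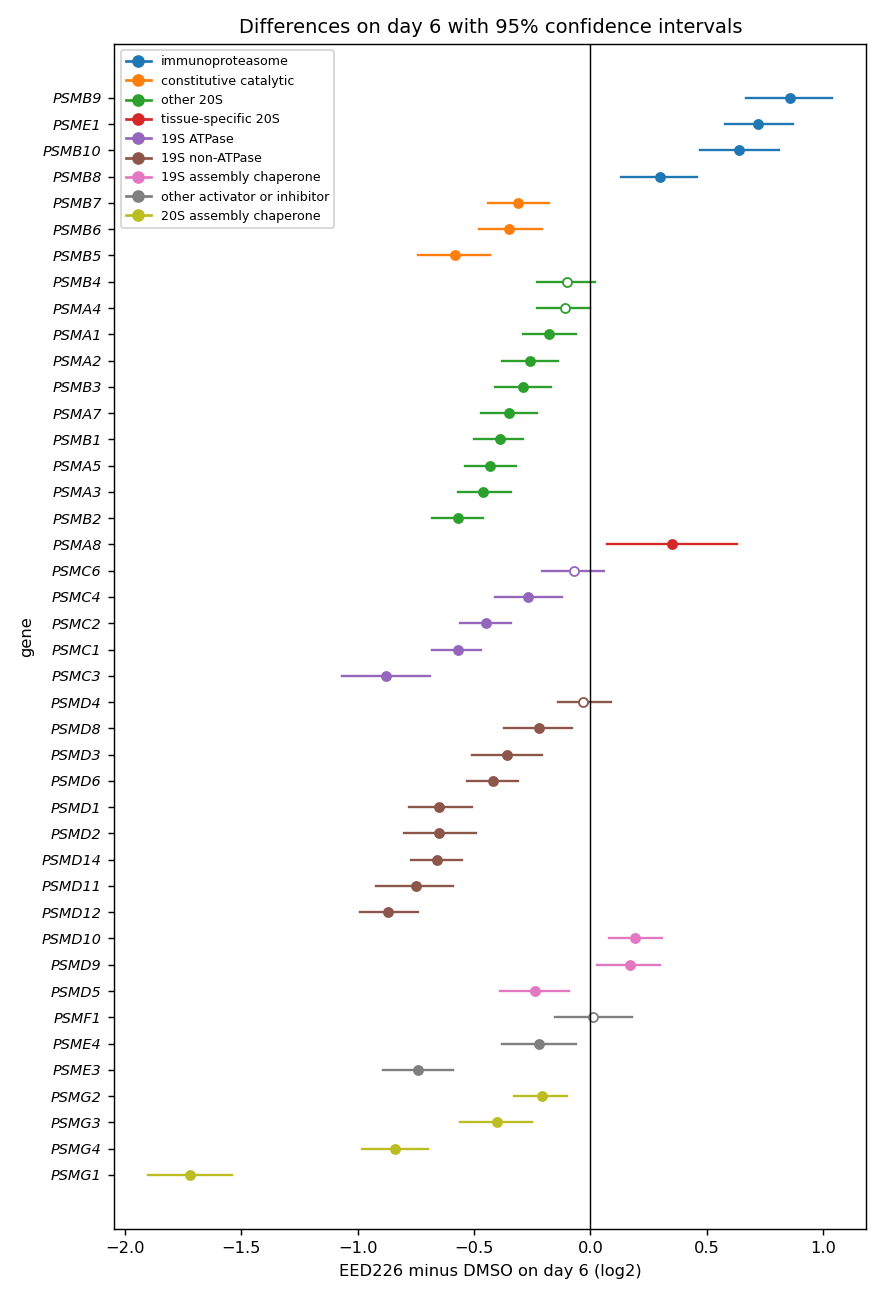
EED226 minus DMSO on day 6 (log2) for the 42 genes, coloured by role, with 95% confidence intervals of the limma fit; filled points passed at an adjusted p under 0.05 and open points did not. The 4 inducible genes lie between 0.30 and 0.86, and PSMG1 lies apart at -1.72.

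The shift of GAPDH 3′ over 5′ signal moves with all these results. With it as a covariate, an alternative added after seeing the data, the median difference on day 6 was 0.55 for the inducible genes. It was -0.43 for the constitutive genes and -0.14 for all genes. In that fit 2 of 4 inducible genes were higher and 19 of 38 constitutive genes lower. Of all 19775 genes it called 2169 higher and 2243 lower, fewer than the main fit. No constitutive gene was higher in that fit or with ACTB integrity as a covariate. PSMB9 (0.98, limma adjusted p = 0.00146), PSME1 (0.55, limma adjusted p = 0.0187), PSMB5 (-1.03, limma adjusted p = 2.08e-05), PSMD12 (-0.82, limma adjusted p = 0.000156) and PSMG1 (-1.67, limma adjusted p = 3.1e-06) passed in that fit. PSMB8 (0.33, limma adjusted p = 0.256), PSMB10 (0.55, limma adjusted p = 0.0527) and PSMC3 (-0.48, limma adjusted p = 0.118) did not. In this measure the EED226 arrays on day 6 (0.524 to 0.737) lay above all other arrays (highest 0.435). That fit therefore separates treatment from integrity poorly, and a call lost in it cannot tell them apart. Without replicate 3 of DMSO on day 6, 4 inducible genes were higher, 31 constitutive genes were lower and 1 was higher, and the medians were 0.62 for the inducible and -0.42 for the constitutive genes.

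The changes built up over days. At 8 h no member passed, nor did any gene (0% of 19775; 0 members and 401 genes had an unadjusted p under 0.05). On day 1 no member passed, against 0.870% of all genes, and 0 members had an unadjusted p under 0.05. The 4 inducible genes had differences of 0.06 to 0.11 at that time, and the 38 constitutive genes of -0.11 to 0.06.

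On day 2 the first members passed, 3 of 4 inducible genes higher against 6.76% of all genes, and 2 of 38 constitutive genes lower against 2.68%. PSME1 had 12.40, 12.36 and 12.45 with EED226 and 12.14, 12.12 and 12.11 with DMSO. It rose without overlap, by 0.28 ± 0.07 (SE, n = 3 each, limma adjusted p = 0.00902). PSMB9 had 11.64, 11.53 and 11.56 with EED226 and 11.34, 11.28 and 11.16 with DMSO. Its groups were apart by 0.32 ± 0.09 (limma adjusted p = 0.0199). PSMB8 had 11.55, 11.56 and 11.50 with EED226 and 11.29, 11.31 and 11.24 with DMSO. Its rise of 0.26 ± 0.08 passed narrowly (limma adjusted p = 0.0414). PSMB10 overlapped, at 0.14 (limma adjusted p = 0.359). The 2 constitutive genes were PSMD12 at -0.27 (limma adjusted p = 0.00273) and PSME3 at -0.26 (limma adjusted p = 0.0242), whose call was lost without any 1 array other than DMSO replicate 1 (limma adjusted p from 0.0539 to 0.0956). With the mean of its probe sets PSMD12 was at -0.14 and did not pass (limma adjusted p = 0.319). The counts on day 2 rested on single arrays: 1 inducible gene passed without DMSO replicate 3, EED226 replicate 1 or EED226 replicate 3. PSMB8 lost its call without any 1 of the 6 arrays (limma adjusted p from 0.0728 to 0.141).

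On day 3 all 4 inducible genes were higher, where 11.7% of all genes were, and 18 of 38 constitutive genes were lower, where 11.2% of all genes were. The medians were 0.60 for the inducible genes, -0.16 for the constitutive genes and -0.02 for all genes. PSMB9 had 11.90, 12.00 and 12.01 with EED226 and 11.35, 11.27 and 11.27 with DMSO, a difference of 0.67 ± 0.09 (SE, n = 3 each, limma adjusted p = 1.55e-06). PSMB10 had 10.29, 10.34 and 10.38 with EED226 and 9.79, 9.70 and 9.68 with DMSO, a difference of 0.62 ± 0.08 (limma adjusted p = 1.76e-06). Both genes were thus clear of DMSO on day 3, and so were the other 2, PSME1 by 0.59 and PSMB8 by 0.33. The largest falls were those of PSMG1 at -0.64 (limma adjusted p = 3.29e-06), PSMD12 at -0.44 (limma adjusted p = 2.86e-06) and PSME3 at -0.43 (limma adjusted p = 5.18e-05). No constitutive gene rose. Of the 19S subunits, 4 of 5 ATPases and 6 of 9 non-ATPases were lower, and of the other 20S subunits 3 of 10. All 18 genes lower on day 3 were also among the 30 lower on day 6, which makes 60% of the longer list. Over all times together, the limma F test passed for 4 of 4 inducible and 30 of 38 constitutive genes, against 40.6% of all genes. These are 34 members, and 14 passed with GAPDH integrity as a covariate.

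**Figure D3:**
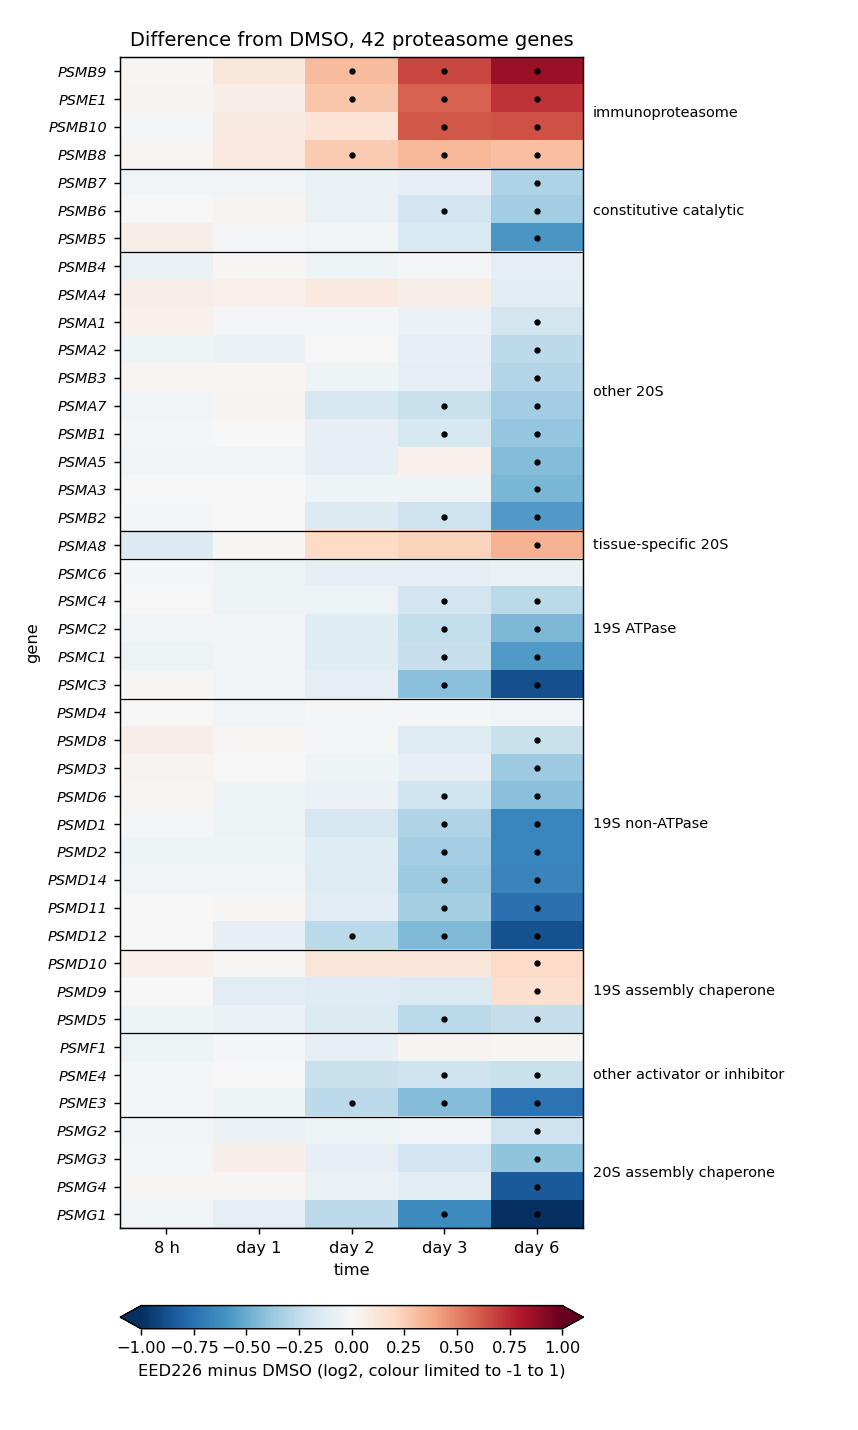
EED226 minus DMSO (log2, colour limited to -1 to 1) for the 42 genes in rows, grouped by role, and 5 times in columns; a dot marks an adjusted p under 0.05. The 4 inducible genes carry dots on days 3 and 6, and the constitutive genes go from 2 dots on day 2 to 18 on day 3 and 33 on day 6, 30 of these lower.

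**Figure D4:**
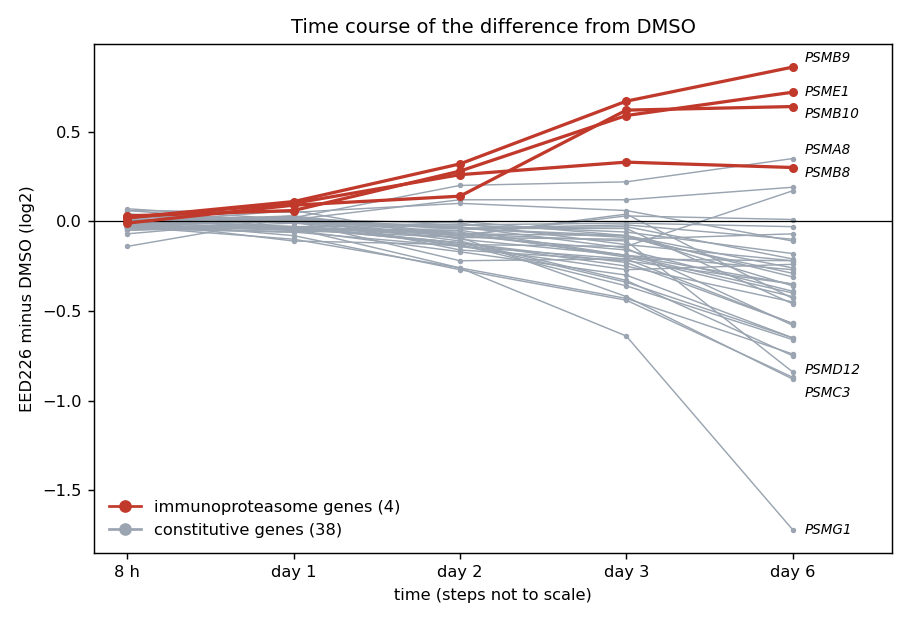
EED226 minus DMSO (log2) against time, 1 line per gene, with the 4 inducible genes in red and the 38 constitutive genes in grey. On day 3 no constitutive gene lies above the lowest inducible gene, and on day 6 1 does, the dim PSMA8.

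The difference between the effects at neighbouring times was tested directly. From day 3 to day 6 the EED226 effect changed for 18 members, 17 downward and 1 upward, against 10.7% of all genes downward and 14.2% upward. The count was 8 with GAPDH integrity as a covariate, with the mean of probe sets and with only the arrays compared. None of the 4 inducible genes was among them, with changes of -0.03 to 0.18 and 95% intervals within -0.27 to 0.44. PSMG1 changed by -1.08 ± 0.12 (SE, limma adjusted p = 2.72e-07), PSMG4 by -0.73 ± 0.09 (limma adjusted p = 1.24e-06) and PSMB5 by -0.43 ± 0.10 (limma adjusted p = 0.00284). The mean of probe sets gave 0.02 for PSMG4, and only the arrays compared gave an adjusted p of 0.0504 in limma for PSMB5. For these genes most of the fall seen on day 6 came after day 3. From day 2 to day 3 and from day 1 to day 2 no member passed in limma (7 and 4 members at an unadjusted p under 0.05), against 0.511% and 0.576% of all genes.

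Culture in DMSO alone is the background for these changes. In DMSO against 0 h no member passed in limma at 8 h or on days 1, 2, 3 or 6, where 0, 0.177, 0.890, 3.02 and 1.72% of all genes did. At an unadjusted p under 0.05 there were 0, 1, 9, 15 and 13 members at these times, so small drifts are not shown to be absent. PSME1 stood 0.23 higher in DMSO on day 6 than at 0 h (limma adjusted p = 0.0947) and PSMB10 stood at -0.28 (limma adjusted p = 0.0817). Fits with a trended variance and with only the brighter genes called 5 and 6 members on day 6. The EED226 arrays on day 6 against 0 h had 38 members past the threshold, 7 higher and 31 lower, against 48.2% of all genes. In that comparison, which shares its EED226 arrays with the one above, PSMB9 was higher by 0.93, PSME1 by 0.95, PSMB8 by 0.39 and PSMB10 by 0.36, and PSMG1 was at -1.85.

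Neighbouring genes of the pathway were counted from lists chosen by function. Of 17 partners of the 26S particle without a PSM symbol, 10 were lower and 4 higher with EED226 on day 6, where 27.3% of all genes were lower and 23.7% higher, so the 4 higher stand near the share of all genes. With GAPDH integrity as a covariate 5 were lower and 3 higher, where 2243 of all 19775 genes were lower and 2169 higher. UCHL5, a deubiquitinase of the 19S particle, was at -1.29 ± 0.07 (SE, n = 3 each, limma adjusted p = 3.42e-15). AKIRIN2, which brings proteasomes into the nucleus, rose by 1.84 ± 0.10 or 3.57-fold (limma adjusted p = 5.1e-15). POMP, the maturation factor of the 20S particle, fell by 0.21 (limma adjusted p = 0.00258), with 0.04 in the mean of its probe sets, and NFE2L1, the transcription factor that raises constitutive proteasome genes when the proteasome is impaired, rose by 0.69 (limma adjusted p = 1.7e-06). Of the 3 measured ubiquitin and E1 genes, UBB rose by 0.43 and UBA1 fell by 0.40, and UBA6, named after its values were seen, was the other that fell. Neither UBA1 (limma adjusted p = 0.212) nor UBA6 (limma adjusted p = 0.0764) passed with GAPDH integrity as a covariate.

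The list for MHC class I loading, which uses the peptides the immunoproteasome makes, also holds genes of the class I molecules themselves (HLA-B, HLA-C, HLA-E, HLA-F and B2M). It had 11 of 14 members higher and 3 lower, with a median difference of 1.13, against 23.7% of all genes higher and 27.3% lower. Without replicate 3 of DMSO the counts were the same and the median was 0.98. With GAPDH integrity as a covariate 9 were higher and 3 lower, where 2169 of all 19775 genes were higher and 2243 lower. TAP1 had 11.72, 11.73 and 11.65 with EED226 and 10.44, 10.45 and 10.13 with DMSO. The groups were more than a full log2 unit apart, and TAP1 rose by 1.36 ± 0.09 (SE, n = 3 each, limma adjusted p = 5.67e-13), where its neighbour PSMB9 rose by 0.86. TAP2 rose by 1.40 (limma adjusted p = 4.11e-13), and by 0.53 in the mean of its probe sets, and TAPBPL, a peptide editor, by 2.29 (limma adjusted p = 8.95e-14). The 3 that fell, CALR, CANX and PDIA3, named after their values were seen, are general chaperones of the endoplasmic reticulum. The call of PDIA3 was lost without DMSO replicate 2 (limma adjusted p = 0.0569) or EED226 replicate 1 (limma adjusted p = 0.057). The mean of the PDIA3 probe sets gave -0.14 (limma adjusted p = 0.117). Of the measured inducers of the immunoproteasome, 7 of 7 rose, with a median of 1.70, and of 1.32 without replicate 3 of DMSO. With GAPDH integrity as a covariate 6 of these 7 were called higher, where 2169 of all 19775 genes were. IRF1, an interferon-regulated transcription factor, had 7.94, 7.68 and 7.78 with EED226 and 5.25, 5.35 and 4.61 with DMSO. Its groups were far apart, with a rise of 2.73 ± 0.13 (limma adjusted p = 1.18e-15), and of 2.50 without replicate 3 of DMSO, its lowest array. IRF9 rose by 1.73 and NLRC5, the activator of MHC class I genes, by 1.70, and by 1.65 and 1.32 in the same order without that array. On day 3 11 of 14 genes of the loading list and 5 of 7 inducers were higher, where 11.7% of all genes were.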

How the data were processed

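Karpas422 RNA, obtained with TRIZOL, was hybridised to Affymetrix arrays after 3′ IVT labelling (per the labels' protocols). The authors deposited RMA values, per the submitters' processing notes, on the log2 scale, 1 value per probe set and array; those notes name no RMA version. RMA draws the arrays' distributions together, and signal from 3′ labelling varies with RNA integrity. Of 54675 probe sets, 62 are controls, 41091 carry 1 symbol, 1801 several and 11721 are unnamed here; only those with 1 symbol were used, 1 per gene, the brightest by the mean over all arrays. Of the 42 members 22 had further probe sets, for 12 of them at least 1 with the opposite sign on day 6, and 18 were measured by probe sets that can match several transcripts. For arrays, their number limits the precision. No 2 arrays had identical values.

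Groups came from the sample titles. limma 3.58.1 in R 4.3.3 fitted 1 mean per group on all 33 arrays (22 residual degrees of freedom), with two-sided moderated tests adjusted by Benjamini-Hochberg over 19775 genes, and was tested on simulated data. Values of every array are given for the inducible and constitutive catalytic genes and for the largest passing rise and fall of every other role group on day 6; at other times passing constitutive genes are named, up to the 3 largest in each direction where over 10 passed. From the pathway lists, the 2 smallest p-values on day 6 and a few genes chosen by function are named. The members and lists were chosen with earlier results of these data known. Deviations of same-numbered EED226 and DMSO arrays had positive correlations at 8 h (0.199 to 0.318), day 1 (0.11 to 0.358), day 2 (0.151 to 0.169) and day 6 (0.0464 to 0.126). On day 3 the correlations ran from -0.00879 to 0.233, and for DMSO and 0 h from -0.154 to 0.35. The main fit does not pair the arrays by these numbers, and the replicate block, an alternative, does. Alternatives were another scaling, the mean of probe sets, only the arrays compared, trended variance, only brighter genes, ACTB or GAPDH integrity as a covariate, array weights, the replicate block and leaving out each array.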

Additional observations from a re-analysis of the deposited data

Results flagged for a closer look

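The effect of EED226 differed between day 3 and day 6, by a test of the difference itself, for 18 members, and for 8 with GAPDH integrity as a covariate, with the mean of probe sets and with only the arrays compared. PSMG1 changed by -1.08 between these times, PSMG4 by -0.73 and PSMB5 by -0.43, all toward lower values on day 6. PSMD9 changed by 0.3 in the other direction, with values of 10.81, 10.82 and 10.80 with EED226 and 10.74, 10.73 and 10.47 with DMSO on day 6, where DMSO replicate 3 is the lowest. Its change was 0.22 without that array (limma adjusted p = 0.0618) and 0.25 without EED226 replicate 2 on day 3 (limma adjusted p = 0.0632).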

How the results depend on the processing

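Leaving out 1 array at a time kept 4 inducible genes higher on days 3 and 6. On day 2 1 to 2 inducible genes were higher and 1 to 2 constitutive genes lower. Constitutive genes lower numbered 13 to 17 on day 3 and 26 to 31 on day 6, and those higher on day 6 1 to 2. The F test passed 32 to 34 members, the change from day 2 to day 3 0 to 1, that from day 3 to day 6 13 to 20, DMSO against 0 h 0 to 1 on day 3 and 0 to 2 on day 6, and EED226 on day 6 against 0 h 38 to 39. The medians on day 6 ran from 0.62 to 0.71 for inducible and from -0.42 to -0.33 for constitutive genes.

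With the GAPDH covariate, added after seeing the data, inducible genes higher numbered 1 on day 2 and 2 on day 6, constitutive genes 0 higher and 19 lower on day 6, and the medians were 0.55 and -0.43. Of all 19775 genes that fit called 2169 higher and 2243 lower on day 6. The F test passed 14 members, the change from day 3 to day 6 8, and DMSO against 0 h 1 on day 3 and 1 on day 6. Constitutive genes lower on day 2 numbered 1 with arrays centred or with the mean of probe sets, 7 with trended variance or only brighter genes, and 8 with array weights. On day 3 1 was higher after quantile normalization or with only brighter genes, and 11 were lower with only the arrays compared. On day 6 1 was higher with only the arrays compared or with array weights and 0 with the ACTB covariate. The change from day 3 to day 6 held for 8 members with the mean of probe sets or only the arrays compared. The change from day 2 to day 3 passed for 1 member after quantile normalization, with trended variance, brighter genes, the ACTB covariate, array weights or the replicate block. In DMSO against 0 h, trended variance or brighter genes passed 1 member on day 2 and 4 on day 3, and 5 and 6 on day 6; quantile normalization passed 2 on day 3, the mean of probe sets 1 on day 6, array weights 2 on day 3 and 2 on day 6, and the replicate block 2 on day 3 and 3 on day 6. The inducible median was 0.74 with the ACTB covariate and 0.62 with array weights, and the constitutive median -0.22 with the mean of probe sets. The cause of these shifts was not tested, except that only the arrays compared leaves fewer arrays to estimate the spread. In the GAPDH measure the EED226 arrays on day 6 lay above all other arrays, so that fit separates treatment from integrity poorly.

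Signs turned on day 6 with the mean of probe sets for PSMA5 (0.25), PSMB2 (0.33), PSMC2 (0.01), PSME4 (0.01) and PSMF1 (-0.18), and with the GAPDH covariate for PSMA4 (0.11), PSMB4 (0.01), PSMD10 (-0.03) and PSMF1 (-0.09). PSMF1 was at -0.06 after quantile normalization and 0 with the ACTB covariate, and leaving out 1 array gave -0.04 to 0.05 for PSMF1 and -0.08 to 0 for PSMD4. The replicate block changed no call among the 42 members on day 6. In EED226 against DMSO it added PSME4 on day 2, and on day 3 added PSMG3 and removed PSMB1 and PSMB6; in the change from day 3 to day 6 it added PSMB7 and removed PSMB1.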
